A study of Caenorhabditis elegans with 4 samples.

Results

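The X chromosome carried 365 of the 2381 regions recovered with LIN-11::EGFP from Caenorhabditis elegans larvae, or 15.3% of the list. Its members were chosen by position alone: every peak of the authors' combined list that lies on X was taken, and the other 2016 peaks lie on the 5 autosomes. The regions came from chromatin immunoprecipitation and sequencing (ChIP-seq), which recovers the DNA crosslinked to a protein. There were 2 libraries of ChIP DNA, precipitated with a goat antibody against GFP, and 2 libraries of input DNA, which is not precipitated and serves as the background. All 4 libraries came from strain OP62, hermaphrodites at larval stage L2 grown at 20 °C, which has the mutation unc-119(ed3) on chromosome III and the insertion wgIs62. That insertion holds unc-119(+) as the rescue gene and the fusion lin-11::TY1::EGFP::3xFLAG. The tagged gene is therefore a bombarded transgene on top of the worm's own copy, and whole animals were used, so a peak does not say in which cells the protein was bound. The general protocol of the labels speaks of embryos, and the stage label, L2, was followed here.

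LIN-11 is a LIM homeodomain transcription factor, known for its roles in the vulval and uterine lineages and in several classes of neurons. As background on the chromosome, hermaphrodites carry a pair of X chromosomes whose output is lowered by the dosage compensation complex, and genes used in the germ line are scarce there. The autosomes of this worm have gene-rich centres between repeat-rich arms, a layout that is weaker on X.

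Each peak has a start, an end and a q-value from the authors' peak caller, PeakSeq, which compares ChIP with input tags in a region. A lower q-value marks stronger evidence. Both replicates were combined into 1 list before deposit, so no value belongs to one library, the depth is unknown, and the spread between cultures could not be measured. The intervals below cover counting error over peaks only. Coordinates are on WormBase WS180. Genes and sequence at these positions are not given, because annotation of that build was not used here.

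X held 20.7 peaks per Mb (exact Poisson 95% interval 18.6 to 22.9), over an extent of 17.6 Mb taken as the end of its last peak. Of the 6 chromosomes, 3 were denser. The autosomes together had 24.6 per Mb, and the ratio of X to them was 0.843 (two-sided exact binomial test, p = 0.00261). With chromosome I left out the ratio was 0.965 and did not pass (exact binomial p = 0.562). Tests of this kind treat peaks as independent, which neighbours may not be. In windows of 100 kb the variance of the counts was 1.26 times their mean on X and 1.77 times on I. Independent peaks at an even rate would give a variance near the mean. These p-values therefore cover only the counting error of independent peaks, and neither clustering nor the spread between chromosomes. With peaks less than 1 kb apart merged, the ratio of X to the autosomes was 0.882 (exact binomial p = 0.0318).

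Set against single autosomes, X lay between a denser and a sparser group. It had 0.538 times the density of chromosome I (38.5 per Mb), 0.771 times that of III (26.9 per Mb) and 0.797 times that of II (26.0 per Mb). The adjusted p-values of the exact binomial test over the 5 pairs were 2.82e-20, 0.00117 and 0.00296. They again take peaks as the units, with the limit given above. X was 1.25 times as dense as chromosome V, which had 16.6 per Mb (exact binomial adjusted p = 0.00414). Against chromosome IV, with 19.0 per Mb, the ratio of 1.09 did not pass the exact test (adjusted p = 0.255). When the list was cut to the 1190 peaks of lowest q-value, the ratios to II (0.828) and V (1.25) no longer passed (exact binomial adjusted p = 0.0974 and 0.0804). The peaks of X covered 199458 bp, or 1.13% of its extent, within the autosomes' range of 0.948% to 1.90% (exact permutation test over the 6 chromosomes, p = 0.833).

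The first peak of X began at 324052, whereas the first peaks of the autosomes began between 3716 (I) and 79007 (IV). From there the peaks ran along the extent, whose right end the last peak itself sets. Each of the 17 full bins of 1 Mb held between 12 and 29 peaks, with a median of 22. The emptiest bin was that from 6 to 7 Mb, with 12 peaks (exact Poisson 95% interval 6.20 to 21.0), followed by that from 9 to 10 Mb with 13. The fullest were the neighbouring bins from 14 to 15 and from 15 to 16 Mb, with 29 peaks each (19.4 to 41.6). The intervals of the emptiest and the fullest bin overlap slightly. The fullest bin of X was as full as that of chromosome V and below those of the other autosomes, the highest of which held 50 on chromosome I.

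X was also divided into 3 segments of equal length, 5876 kb each. The right segment held 143 peaks (39.2%, 24.3 per Mb), the left 119 (32.6%, 20.3 per Mb) and the central 103 (28.2%, 17.5 per Mb), where equal filling would give 121.67 in each. Neither the surplus on the right nor the deficit in the centre passed the exact binomial test after adjustment over the 3 segments (adjusted p = 0.0589 and 0.0598). The left segment was close to equal filling (exact adjusted p = 0.782). Among the 172 X peaks that belong to the 1190 with the lowest q-values, the right and left segments held 60 each and the central 52. Among the other 193 the right segment held 83, the left 59 and the central 51. The median q-value was 0.00113 in the right segment, 0.000273 in the central and 0.000334 in the left. The central share of X, 28.2%, lay near the lower end of the autosomes' range of 27.7% (IV) to 37.6% (V). The exact permutation test gave p = 0.5. With 1 X and 5 autosomes as its units this exact test cannot go below p = 0.167, so no difference over chromosomes can pass it.

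**Figure D1:**
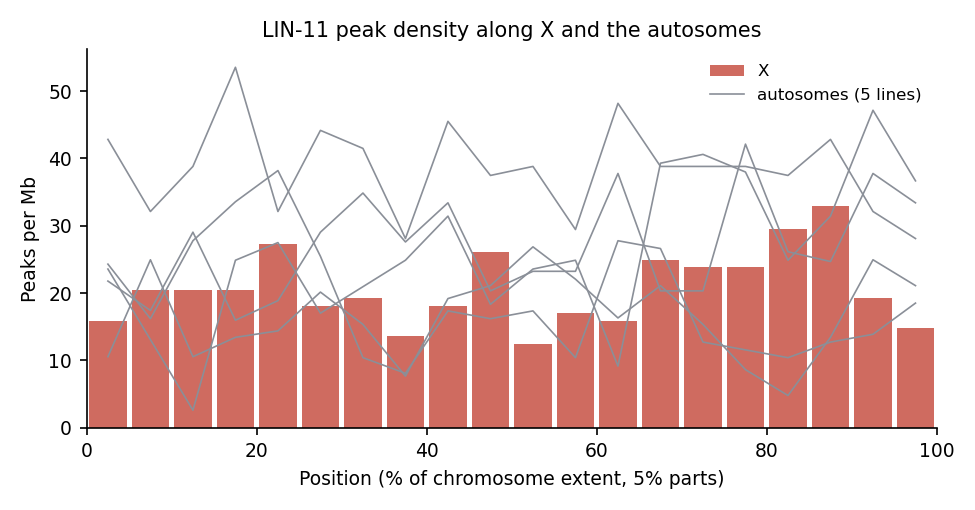
Peaks per Mb (vertical axis) in 20 equal parts of each chromosome's extent (horizontal axis, percent of extent), with X as bars and the 5 autosomes as lines. The parts of X held 11 to 29 peaks, or 12.5 to 32.9 per Mb, with the fullest part centred at 87.5% of the extent.

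Close neighbours were few on X. Of its peaks, 32 (8.77%, exact Clopper-Pearson 95% interval 6.07% to 12.2%) had another peak within 2 kb, midpoint to midpoint, against 15.5% of the whole list. The autosomes ran from 12.4% (III) to 23.7% (I), so X lay below all 5, although its interval overlapped those of II (11.3% to 18.5%), III (9.25% to 16.2%) and IV (9.12% to 16.6%). On IV and V the shares were 12.5% and 15.9%. Within 5 kb the count on X was 90 peaks (24.7%, 20.3% to 29.4%), against 34.6% of the whole list and an autosomal range of 26.8% to 47.7%. The exact permutation test over the 6 chromosomes gave p = 0.333 at either distance, above the smallest p it allows. In the list of 1190 peaks X no longer lay outside the autosomes, with 5.81% within 2 kb against 4.44% to 12.9%. The same held with peaks less than 1 kb apart merged (2.27% against 1.74% to 6.96%).

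Gaps shorter than 1 kb, counted from the end of a peak to the start of the next, were few as well. Of the 364 gaps on X, 13 (3.57%, exact 95% interval 1.92% to 6.03%) were shorter than 1 kb, against 4.59% (IV) to 10.1% (I) on the autosomes. This interval overlapped those of II (5.38% to 10.9%), III (4.65% to 10.2%), IV (2.59% to 7.45%) and V (5.46% to 11.5%). The share takes no account of density. A further 45 gaps (12.4%) measured 1 to 5 kb, and 74 (20.3%) measured 5 to 20 kb. Gaps of 20 to 100 kb numbered 182 of the 364 on X, and made up 36.6% to 47.7% of those on the autosomes. The lower quartile of the gap was 11.0 kb on X and 3.35 to 10.5 kb on the autosomes. The median was 30.1 kb on X, inside the autosomal range of 14.2 to 33.1 kb (exact permutation p = 0.667). In units of the mean gap of its own chromosome, which takes out density, the median gap of X was 0.641, within the 0.554 to 0.657 of the autosomes. X thus lay below the autosomal range for gaps under 1 kb, with an interval overlapping those of II to V, and inside the range for the median.

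**Figure D2:**
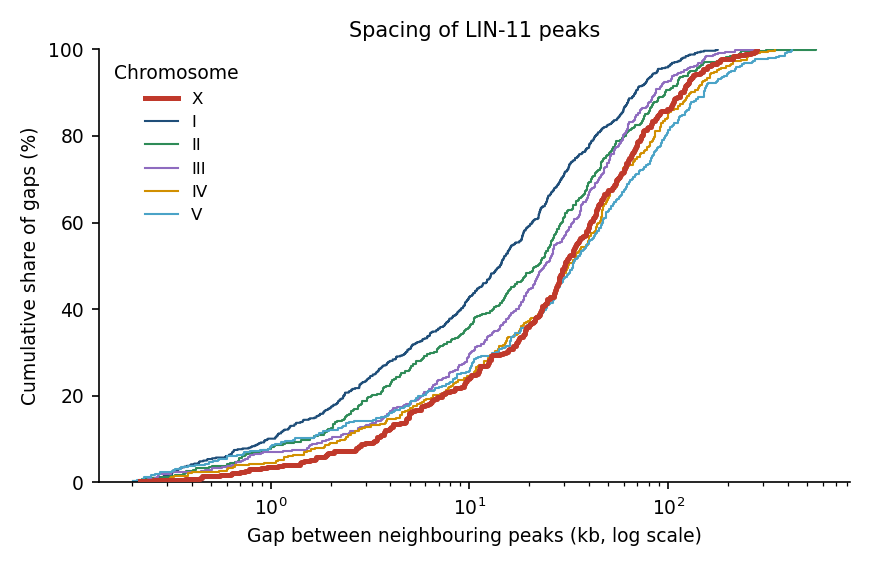
Cumulative share of gaps (vertical axis, percent) against gap length (horizontal axis, kb, log scale), with 1 line per chromosome and X drawn thick. At 1 kb the line of X is the lowest at 3.57%, and its median of 30.1 kb lies between those of I (14.2 kb) and V (33.1 kb).

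The 13 pairs of X peaks less than 1 kb apart joined 26 different peaks, so no 3 peaks stood in such a row. Their gaps ran from 220 to 958 bp (median 630 bp), and 8 of the pairs lay in the right segment, 3 in the left and 2 in the centre. The right segment held 39.2% of all X peaks. The shortest gap of each autosome measured 202 to 295 bp, so the smallest gap of X was like theirs. The closest pair, at 13597959 to 13598378 and 13598599 to 13598809, was 220 bp apart, and its members had unlike q-values of 4.34e-13 and 0.00169. Next came 8019573 to 8020314 and 8020569 to 8022152, 254 bp apart, with q-values of 0.000507 and 7.21e-06. The pair at 2819020 to 2819469 and 2819841 to 2820269 was 371 bp apart (2.51e-08 and 1.20e-05). In these 3 pairs one member had a q-value at least 10 times that of the other.

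A weaker pair, at 3604561 to 3605224 and 3605666 to 3606109, was 441 bp apart with q-values of 0.00401 and 0.00548. The pair at 14559478 to 14560987 and 14561438 to 14562517 was 450 bp apart and joined broad peaks of 1510 and 1080 bp (6.80e-05 and 1.97e-05). In 5 of the 13 pairs at least 1 member had a q-value below 1e-10, and in 1 pair both did. That pair lay at 4142098 to 4143617 and 4144174 to 4147118, with q-values of 9.12e-26 and 7.20e-11 across a gap of 556 bp. In 6 of the 13 pairs at least 1 member had a q-value above 0.001. Of single peaks, 10.4% on X and 11.2% in the whole list lay below 1e-10, and 44.9% and 41.3% above 0.001. The counts of pairs were not tested against these shares. Across all 364 neighbours on X, the scores (minus log10 of the q-value) of a peak and the next had a Spearman rho of 0.070, as a description over overlapping pairs of peaks.

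At the other end, 50 gaps on X (13.7%) exceeded 100 kb, compared with 4.18% (I) to 19.1% (V) on the autosomes. The longest ran from 1022404 to 1302221, or 279818 bp. It was close in length to those from 9466138 to 9743364 (277227 bp) and from 9024560 to 9296603 (272044 bp). The next ran from 6744195 to 7005396 (261202 bp) and from 8552370 to 8796696 (244327 bp). Of these 5, 4 lay in the central segment. The longest gaps of the autosomes ran from 177796 bp (I) to 552865 bp (II).

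In windows of 100 kb, 34 of the 176 full windows of X (19.3%) held no peak, inside the autosomal range of 4.03% to 28.4% (exact permutation p = 0.833). Another 38 windows held 1 peak, 40 held 2, 32 held 3, 17 held 4 and 8 held 5. No window of X held more than 6, while the fullest window of each autosome held 7 (IV) to 12 (I). The variance of the window counts was 1.26 times their mean on X, against 1.05 (III) to 1.77 (I) on the autosomes (exact permutation p = 0.667). X was therefore below the autosomes in its fullest window and inside their range in evenness.

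The fullest windows, 7 in number with 6 peaks each, lay at 1.4 to 1.5, 2.8 to 2.9, 4.2 to 4.3, 11.9 to 12.0, 14.7 to 14.8, 14.8 to 14.9 and 16.2 to 16.3 Mb. They were unlike in strength. The window at 4.2 to 4.3 Mb held the seventh strongest peak of X (4208579 to 4209473, q-value 1.11e-24) and beside it peaks with q-values up to 0.00471. In the window at 11.9 to 12.0 Mb every peak was weak, with q-values from 0.00140 to 0.00354 and widths from 212 to 524 bp. The neighbouring windows at 14.7 to 14.8 and 14.8 to 14.9 Mb ran from a peak of 1 bp at 14897242 to one of 1922 bp at 14817760 to 14819681.

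The median width of X peaks lay inside the autosomal range, and the lower quartile just above it. Their median width was 413 bp, between a lower quartile of 301 bp and an upper one of 650 bp. The autosomal medians ran from 377 bp (I) to 421.5 bp (IV), and the lower quartiles from 267 bp (II) to 296 bp (III). The exact permutation test over chromosomes gave p = 0.833. Peaks of 200 to under 500 bp formed the largest class, with 203 of the 365 (55.6%, against 1008 of 2016 on the autosomes together), followed by 97 of 500 to under 1000 bp (26.6%, against 26.2%). Peaks of at least 1000 bp numbered 33 (9.04%, exact 95% interval 6.31% to 12.5%), against 10.2% of the whole list and 7.83% to 13.6% on single autosomes (exact permutation p = 0.667). X lay below every autosome in 2 alternatives. With peaks less than 1 kb apart merged it had 11.4% against 12.6% to 16.4% (exact permutation p = 0.167, the smallest possible), and without chromosome I 9.04% against 10.1% to 13.6% (exact permutation p = 0.4). These 33 held 28.7% of the bases covered on X, and 11 lay in each of the 3 segments.

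Very narrow peaks made up a smaller share on X than on any autosome, with an interval that held the share of the whole list. On X 9 peaks (2.47%, 1.13% to 4.63%) were under 50 bp, against 3.99% of the whole list, which lies inside that interval. Single autosomes ran from 3.02% (II) to 7.23% (V), and the interval of X overlapped those of I, II, III and IV and ended below that of V (4.73% to 10.5%). The fifth percentile of width was 140 bp on X and 24.5 to 103 bp on the autosomes. The 4 X peaks of at most 10 bp measured 1 to 8 bp and had q-values from 0.00249 to 0.00641, all above the X median of 0.000538. None of the 9 had another peak within 2 kb.

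**Figure D3:**
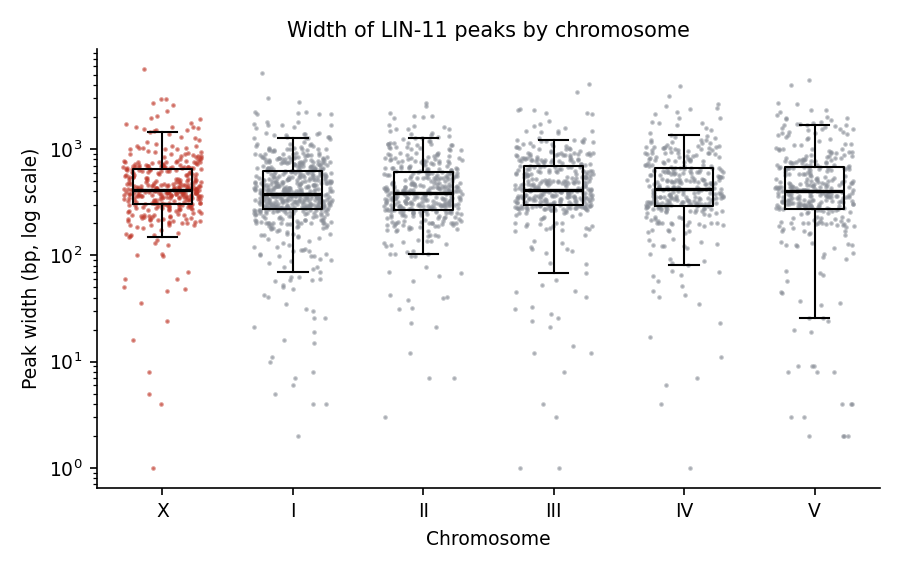
Peak width (vertical axis, bp, log scale) by chromosome, with each point 1 peak, boxes for the quartiles and median, and whiskers from the fifth to the 95th percentile. The medians lie between 377 and 421.5 bp, and the lower whisker of X (140 bp) ends above those of the autosomes (24.5 to 103 bp).

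The median score of X peaks lay in the lower part of the autosomal range, and their share of q-values below 1e-10 near its middle. Their q-values ran from 6.93e-72 to 0.00991. The median score was 3.27 on X, against 3.19 (II) to 3.68 (III) on the autosomes (exact permutation p = 0.667). Of the X peaks, 38 (10.4%, exact 95% interval 7.47% to 14.0%) had a q-value below 1e-10, against 11.2% of the whole list and 7.23% (V) to 13.2% (I) on single autosomes (exact permutation p = 1). A q-value below 1e-05 was found for 96 (26.3%, 21.9% to 31.1%), against 31% of the whole list, and one above 0.001 for 164 (44.9%, 39.8% to 50.2%), against 41.3%. For q-values above 0.001 X lay just above the single autosomes (37.3% on III to 44.3% on II), within its own interval. Along the ranking the share of X scattered around its 15.3% of the whole list, with no test made. X supplied 2 of the 20 peaks with the lowest q-values in the list, 12 of the lowest 50 (24.0%), 18 of the lowest 100, 34 of the lowest 238 (14.3%) and 172 of the lowest 1190 (14.5%).

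**Figure D4:**
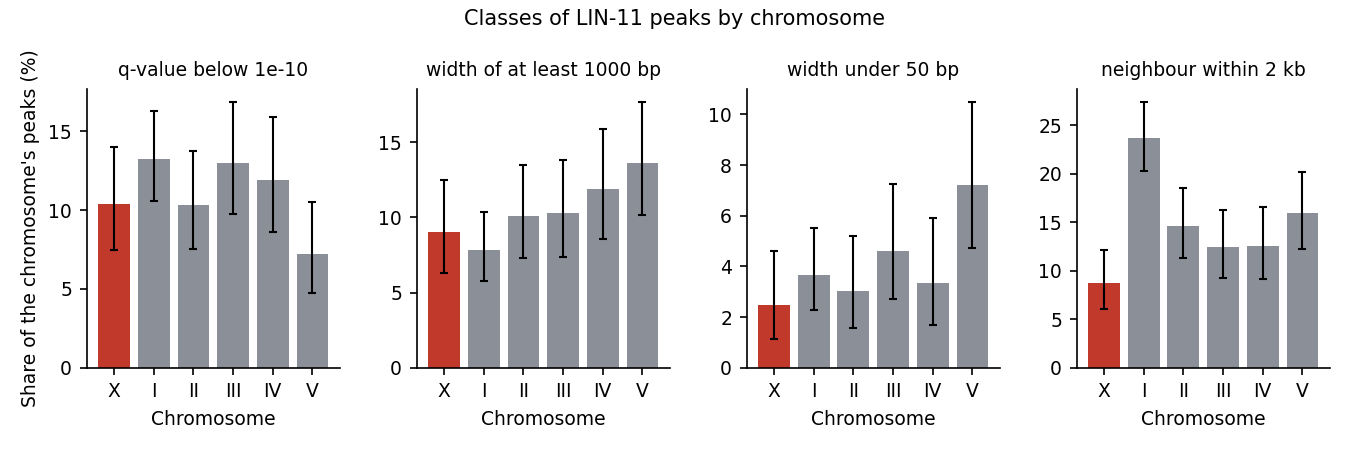
Share of each chromosome's peaks (vertical axis, percent) with a q-value below 1e-10, a width of at least 1000 bp, a width under 50 bp and another peak within 2 kb, with exact 95% intervals as error bars. The bar of X (leftmost) is the lowest in the last 2 panels, at 2.47% and 8.77%.

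The strongest peak on X was also the strongest of the whole list. It spanned 2621 bp at 16929352 to 16931972, its q-value was 6.93e-72, and the nearest other peak was 29251 bp away. The runner-up, 1559 bp wide at 1503629 to 1505187, had 6.87e-42. A weaker peak of 257 bp at 1501694 to 1501950 stood 1678 bp to its left, and the next peak to its right was 121755 bp away. The next strongest, a peak of 640 bp at 16056167 to 16056806, had a q-value of 5.74e-28.

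The following peaks were closer together in strength. The peak at 6296063 to 6296822 (760 bp) had a q-value of 9.22e-27. The peak of 1520 bp at 4142098 to 4143617 had one of 9.12e-26 and is the left member of the strong pair described above. Then came 10568135 to 10569400 (1266 bp, 3.96e-25), 4208579 to 4209473 (895 bp, 1.11e-24) and 2242814 to 2243264 (451 bp, 4.08e-24). The peak of 451 bp was the narrowest of the 20 strongest. Peaks at 11603660 to 11606635 (2976 bp, 2.47e-23) and 8036082 to 8036915 (834 bp, 2.88e-23) completed the first 10.

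The second 10 lay at 11093805 to 11094372 (3.83e-22), 5429135 to 5429914 (1.42e-21), 7822939 to 7823542 (1.37e-20), 13143916 to 13145622 (1.36e-19) and 13700608 to 13701086 (1.76e-18). The last 5 lay at 5728827 to 5729890 (2.50e-18), 16611262 to 16613020 (9.16e-18), 14525441 to 14526194 (3.37e-17), 6207557 to 6208072 (4.24e-16) and 2970839 to 2971958 (9.96e-16). The 20 were spread along X, with 7 in the left, 7 in the central and 6 in the right segment. Their widths ran from 451 to 2976 bp, the median being 864.5 bp, and 9 were at least 1000 bp wide. Of the 20, 1 had another peak within 2 kb, midpoint to midpoint.

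Stronger peaks were wider on X. Across the 365 peaks, width and score had a Spearman rho of 0.527 and a Pearson r of 0.439, and the autosomes had rho from 0.423 (II) to 0.544 (I). These are descriptions across peaks of 1 list, which share their libraries, and a q-value computed from the tags within a peak depends on how wide that peak is. The median q-value was 0.00641 for X peaks under 50 bp, 0.00489 for those of 50 to under 200 bp and 0.000942 for those of 200 to under 500 bp. It was 4.64e-05 for those of 500 to under 1000 bp and 8.43e-09 for those of at least 1000 bp. None of the 32 peaks under 200 bp had a q-value below 1e-10, and 14 of the 33 of at least 1000 bp did.

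**Figure D5:**
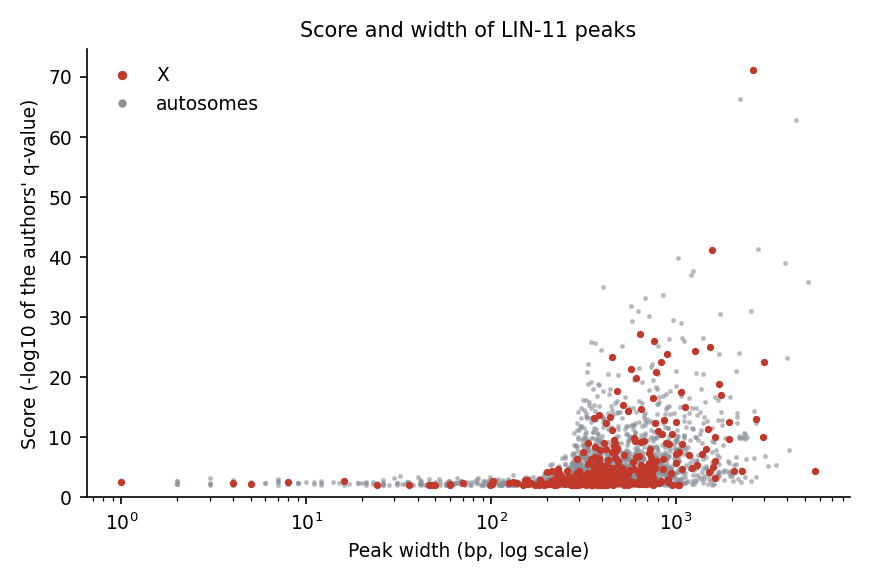
Score (vertical axis, minus log10 of the authors' q-value) against peak width (horizontal axis, bp, log scale) for X peaks over the autosomal peaks. The strongest X peak has a score of 71.2 at 2621 bp, and the widest, at 5646 bp, has a score of 4.34.

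The widest X peak was not among the strongest. At 6738549 to 6744194 it measured 5646 bp, the greatest width in the list, and its q-value of 4.54e-05 ranked 125 among the X peaks. A peak of 4 bp at 6726045 to 6726048 lay 12500 bp to its left, and the gap of 261202 bp named above began at its right edge. The next in width, 2976 bp at 11603660 to 11606635, ranked 9 by q-value.

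After it came 4144174 to 4147118 (2945 bp, q-value 7.20e-11), 15606615 to 15609319 (2705 bp, 8.41e-14) and the strongest peak (2621 bp). The peaks at 4523733 to 4526012 (2280 bp, 4.39e-05) and 11472840 to 11474902 (2063 bp, 4.28e-05) were wide too, with q-values close to that of the widest peak. The 10 were completed by 1452914 to 1454855 (1942 bp, 1.79e-10), 14817760 to 14819681 (1922 bp, 2.86e-13) and 16611262 to 16613020 (1759 bp, 9.16e-18). The 10 widest and the 20 strongest X peaks had 3 members in common. Of the 20 widest peaks of the whole list 5 were on X, of the 50 widest 7 and of the 100 widest 17, where X held 15.3% of all peaks.

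Peaks with and without a near neighbour were set side by side within X. The 32 with another peak within 2 kb had a median width of 447 bp and a median q-value of 0.000430, and the 333 without had 408 bp and 0.000564. At a distance of 5 kb the 90 peaks with a neighbour had medians of 438.5 bp and 0.000267, and the 275 without had 408 bp and 0.000568. No test was made between these sets, which share the same libraries.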

How the data were processed

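Per the file headers, the deposited list is in GFF3 format on WormBase WS180 with PeakSeq as its source; the caller's version, the aligner and the filters are not given in the sources used here. Its score is a q-value per peak, deposited by the authors, and start and end are base positions counted from 1. From these, widths, gaps, midpoints, window counts and shares were computed with Python 3.11.15, numpy 2.4.6, pandas 2.3.3 and scipy 1.17.1, and drawn with matplotlib 3.10.9. The extent of a chromosome was taken as the last base of its last peak, in place of its length. Densities were compared by two-sided exact binomial tests, with Benjamini-Hochberg adjustment over 5 pairs or 3 segments at a threshold of 0.05. The units of these tests are peaks, so they do not measure the spread between chromosomes. Other measures were compared by an exact two-sided permutation over the 6 chromosomes of the difference between X and the mean of the others, since peaks of 1 chromosome are not replicates. The binomial tests were tried on simulated counts of independent peaks, which cannot show how they behave when peaks cluster. The permutation was tried on made-up values only, and the recovery of tag numbers on simulated pairs. The members, lists and tests were chosen with earlier results of these data known. Regions named are the 20 strongest and 10 widest X peaks, the 5 longest gaps, the 5 closest pairs and the fullest windows; others, such as the pair with both q-values below 1e-10, were chosen after their values were seen. No table column of single samples was left out.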

Additional observations from a re-analysis of the deposited data

How the results depend on the processing

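For 20 results, 82 alternative values were computed, of which 76 stayed on the same side of no difference and of the threshold of 0.05. For tests over chromosomes, which cannot pass, this speaks of direction only. The alternatives were the 1190 peaks with the lowest q-values, no peaks under 50 bp, merging of peaks less than 1 kb apart, no chromosome I, another extent, and other windows, distances or width limits. In the list of 1190, the density of X to IV turned to 0.998, the left segment to 1.05 times equal filling and the share of peaks of at least 1000 bp to 0.0998 percentage points above the autosomes' mean. In that list the density ratios to II (0.828) and V (1.25) left the exact test, and without chromosome I the ratio to the autosomes (0.965) did. The cause was not tested. Merging gave no value for scores or tags, and the list of 1190 was not used for q-values below 1e-10. No paired analysis was possible because both replicates were merged into 1 list without a value for either, so no replicate could be left out. Unknown depth limits statements on stretches without peaks, where none was detected.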

Other observations

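Whole tag numbers were recovered from the q-values. Each q-value times its line number, divided by 20869 tested regions, equalled the chance of at least so many ChIP tags among all tags when ChIP and input tags have an equal chance, for all 365 X peaks and all 2381 peaks, within a relative tolerance of 1e-11. With 20868 or 20870 regions, 0 peaks matched. Every X peak had 1 matching pair of tag numbers. These numbers are inferred from the authors' q-values and are not values of the list, and any scaling of input tags by the caller is already in them.

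On this reading the X peaks had a median of 107 ChIP tags (16 to 1210) and 54 input tags (2 to 875). The ratio of ChIP to input tags had a median of 2.11 on X, below each autosome, whose medians ran from 2.13 (III) to 2.48 (I). The exact permutation test over chromosomes gave p = 0.333. The ratio was under 2 in 156 X peaks (42.7%), against 19.2% (I) to 40.0% (III) of autosomal peaks. It was 5 or more in 17 (4.66%), inside the autosomal range of 4.59% (III) to 11.3% (V) and close to III. The 17 include all 9 X peaks under 50 bp, which had only 2 to 4 input tags each, so this share leans on very small counts. Input tags per kb of peak, over peaks of at least 50 bp, had a median of 118 on X and 91.3 (V) to 121 (III) on the autosomes. By segment the median ratio on X was 2.19 in the left, 2.12 in the central and 2.00 in the right. An alternative with peaks of at least 50 bp and 10 input tags only was chosen after seeing the data. In it the median of X was 2.03 over 338 peaks. The autosomal medians ran from 2.09 to 2.33, with a mean of 2.19.

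The strongest X peak, at 16929352 to 16931972, had 1210 ChIP and 467 input tags, a ratio of 2.59. The widest, at 6738549 to 6744194, had 1080 and 875, a ratio of 1.23, the lowest of any peak on X and below the lowest of each autosome (1.29 to 1.40). The 20 strongest X peaks had ratios from 1.86 to 3.46. The highest ratio among the 338 peaks, 5.40, belonged to 10894040 to 10894332 with 54 ChIP and 10 input tags, and its q-value ranked 73 on X. The 20 with the highest ratios and the 20 with the lowest q-values had 2 peaks in common, which was not set against the overlap expected by chance. The 9 peaks under 50 bp rested on 16 to 20 ChIP tags and 2 to 4 input tags.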
